A study of Mus musculus with 8 samples.

Results

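The ISG15 conjugation pathway was examined in primary cultured mouse microglia with and without added immunoglobulin G (IgG). The genes were Isg15, Uba7, Ube2l6, Herc6 and Usp18, chosen by symbol because together they encode the modifier, the 3 enzymes that attach it and the protease that removes it, and all 5 were found among the 55385 genes of the deposited count table. All 5 were also among the 17537 genes that passed the filter on low counts, each with at least 411 counts in every library. The cells were wild-type microglia from the pooled neocortices and hippocampi of newborn mice, shaken off mixed cultures after 12 days and treated at day 15 in vitro (DIV15). The 4 IgG libraries came from cells given 10 µg/ml IgG for 24 h. The 4 control libraries are labelled untreated, and the study's methods name PBS as their treatment. The strain of the sequenced cultures is not named in the sources used here, while other microglial cultures of the study are described as C57BL/6J. Each IgG library shares a replicate number and a date with 1 control library, and these 4 couples are called pairs 1 to 4, although what the date marks is not stated.

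ISG15 is a small protein with a pair of ubiquitin-like domains, and its gene is among those most readily switched on by type I interferon (IFN-I). It is linked to lysines of other proteins by a relay that parallels ubiquitin: the E1 enzyme UBA7 activates it, the E2 enzyme UBE2L6 carries it, and an E3 ligase passes it to the substrate. HERC6 is the main ISG15 ligase in mice, which lack the human ligase gene HERC5. USP18 cleaves ISG15 from its substrates, and, apart from that activity, it binds the receptor chain IFNAR2 and dampens IFN-I signaling. In brain, Usp18 is known as a gene that restrains microglial activation, above all in white matter.

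All 5 genes had higher levels with IgG than without it in each of the 4 pairs, and the rise passed the adjusted test for Usp18 alone. The exception to the first count was scaling by library totals alone, under which Isg15 in pair 1 was slightly lower with IgG (1249 of 23703216 counts against 1254 of 23571277) and 4 of the 5 genes were higher in every pair. The estimates ran from 1.30-fold for Uba7 to 1.61-fold for Usp18. Being higher in all 4 pairs was a property of 10.4% of all tested genes, and an unadjusted p below 0.05 with a higher level was reached by all 5 genes against 6.35% of all tested genes. At an adjusted p below 0.05, edgeR's quasi-likelihood test with the replicate number as a block called 69 genes, or 0.393% of those tested, all of them higher with IgG, and Usp18 was among them. The study's own criterion was an unadjusted p below 0.01 with a log2 fold change beyond 0.5 in either direction. Applied to this fit, it passed Usp18 and Ube2l6 as higher genes, as it did 1.48% of all tested genes. A further 60 genes passed as lower. Isg15 narrowly missed the p threshold in this fit (edgeR unadjusted p = 0.0102). The study's gene ontology table, built on its own test, names both Isg15 and Usp18 among the differentially expressed genes. Without the block, the adjusted test called no gene (0% of those tested), although 847 genes were higher and 383 lower at an unadjusted p below 0.05. In that unpaired comparison Uba7, Ube2l6 and Usp18 were among the higher genes, which made up 4.83% of all tested genes, and Ube2l6 alone met the study's criterion, which 0.582% of all tested genes met as higher.

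**Figure D1:**
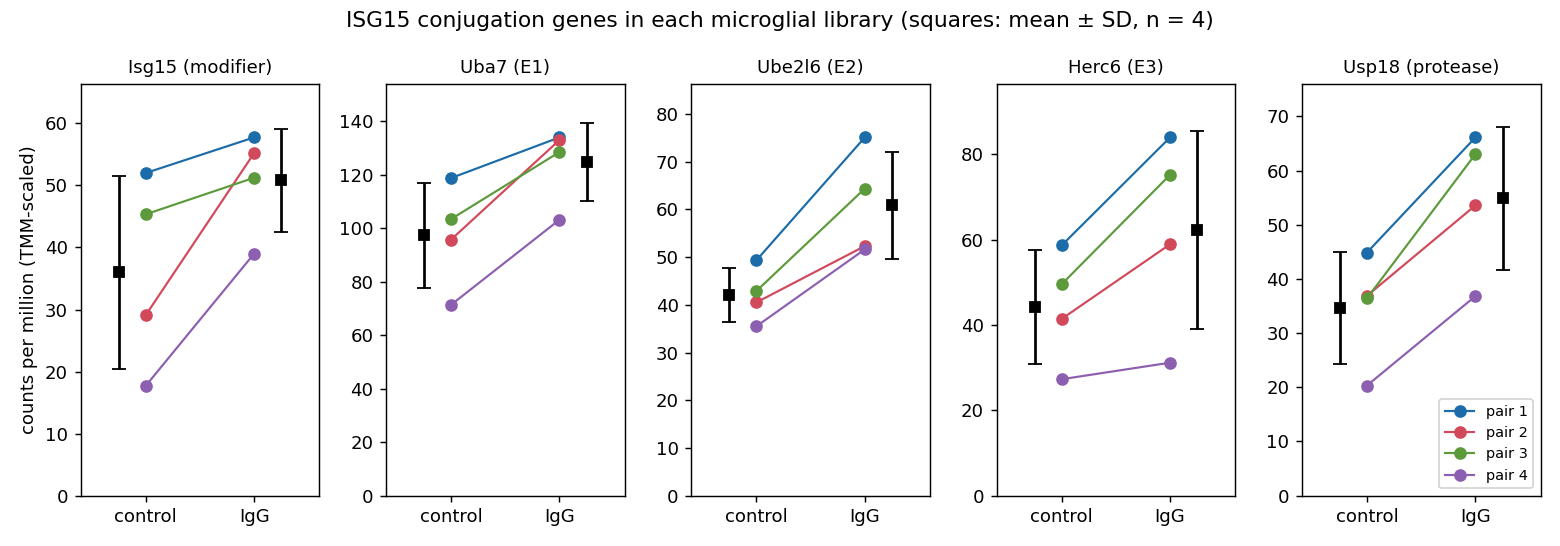
Level in CPM (counts relative to the TMM-scaled library total, each axis from 0) of the 5 ISG15 pathway genes in the 8 libraries, with lines joining the control and IgG library of a pair and squares for the mean ± SD of each group (n = 4). Every line slopes upward, pair 1 is the highest and pair 4 the lowest in every panel, and the groups are fully separated only for Ube2l6.

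The libraries held 21287816 to 23703216 counts each. Cell identity was checked with marker lists. The 10 microglial markers summed to 7873 to 8636 CPM in control and 8475 to 9457 CPM in IgG libraries. The summed levels of other lists were, in control and IgG libraries, 39.5 to 61.6 and 35.0 to 50.5 CPM for 6 neuronal markers, 158 to 180 and 136 to 178 CPM for 7 astrocyte markers, 7.83 to 18.8 and 8.60 to 15.8 CPM for 6 fibroblast markers, and 1121 to 1743 and 942 to 1644 CPM for 7 oligodendrocyte markers. All 7 oligodendrocyte markers had lower estimates with IgG (median log2 fold change -0.12). The lowest was Olig2 at -0.50 (edgeR adjusted p = 0.235), lower in all 4 pairs. Estimates were also lower for 6 of 7 astrocyte markers (median -0.15) and 5 of 6 neuronal markers (median -0.20). Of the 4 fibroblast markers tested, 3 had higher estimates (median 0.08). The border macrophage list of 6 genes summed to 448 to 690 CPM in control and 579 to 1165 CPM in IgG libraries, and its Lyve1 and Cd163 were too low to be tested. Some macrophage markers moved with IgG by about as much as the 5 genes. The microglial marker Aif1 rose by 0.69 on the log2 scale (edgeR adjusted p = 0.0331) and was the highest of its list. Of the 10 microglial markers, 8 had higher and 2 lower estimates, with a median of 0.19 and Tyrobp the lowest at -0.20. Higher in all 4 pairs were 4 of the 10 (40%), against 10.4% of all tested genes. Ms4a7 of the border macrophage list rose by 0.61 (edgeR adjusted p = 0.0381), while Siglec1 of that list was at 0.67 (edgeR adjusted p = 0.111). Aif1, Ms4a7 and Siglec1 were each higher in all 4 pairs. The 4 tested border macrophage markers all had higher estimates (median 0.39). The part of these other cell types in the results below was not tested, and in bulk RNA more cells of a type and more RNA per cell cannot be told apart. The mitochondrial share of the counts was 4.85% and 5.59% in IgG 1 and IgG 3, 2.21% and 1.97% in IgG 2 and IgG 4, and 2.32% to 2.41% in the controls. The change within a pair also ran with the GC content of genes, with a Spearman correlation across 15877 genes of -0.41 in pairs 1 and 3, -0.02 in pair 2 and 0.33 in pair 4. Genes are not independent replicates, and these values describe the libraries.

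Isg15 (ENSMUSG00000035692) is the gene for the modifier and lies on the minus strand of chr4:156199424-156200818 of the GRCm38 build. Its control levels were 52.0, 29.1, 45.3 and 17.7 CPM in replicates 1 to 4, and its levels with IgG were 57.7, 55.2, 51.2 and 39.0 CPM. The IgG libraries lay close together, with a 1.48-fold spread from lowest to highest, while the controls spread 2.94-fold, and the groups overlapped because control 1 exceeded 2 of the IgG libraries. Within pairs, Isg15 was higher with IgG by 0.15, 0.92, 0.18 and 1.14 on the log2 scale. The pairs thus fell into 2 small and 2 large differences, and the large ones were those whose controls were lowest. A low control value itself raises the difference, so this order is not a separate result. The log2 fold change was 0.59 ± 0.18 (SE, n = 4 pairs, 95% interval 0.18 to 1.00), and it did not pass the adjusted test (edgeR adjusted p = 0.356, unadjusted p = 0.0102). Without the block it was 0.49 ± 0.29 (SE), with an edgeR adjusted p of 0.699.

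The small Isg15 differences were in pairs 1 and 3, the pairs whose IgG libraries had the high mitochondrial shares, and the part of that share in the result was not tested. In each library, the departures of genes from their mean log2 CPM over all libraries were smoothed against exon length and then against GC content. With both trends removed, the Isg15 changes within pairs were 0.33, 0.90, 0.35 and 0.95. With that correction the log2 fold change was 0.63 ± 0.12 (SE) and the edgeR adjusted p was 0.0474. The same order of pairs remained, with pairs 2 and 4 above pairs 1 and 3.

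The interferon-stimulated response element (ISRE) is a DNA motif known from the promoters of interferon-induced genes. Among the promoters read for these genes, that of Isg15 alone held an exact match to the form searched. Windows from 250 bases before to 50 bases after the RefSeq gene start (GRCm38.p6) were available for 4 of the 5 genes, all except Usp18. The motif was searched on both strands as GAAA, any 2 bases and GAAA again. It occurred 3 times in the Isg15 window, each match overlapping the next, between 78 and 57 bases before the start, at chr4:156200875-156200896. The windows of Uba7, Ube2l6 and Herc6 held no exact match, and looser forms of the motif were not searched. Of 32851 RefSeq promoter windows, 3.44% held at least 1 match, as did 3.17% of the windows of tested genes. The gamma-activated site, searched as TTCNNNGAA, was in none of the 4 windows and in 8.3% of all windows. A match is a run of letters and was not tested as a binding site. The 150 bases before the start of Isg15 (chr4:156200819-156200968, minus strand) and of Uba7 (chr9:107975417-107975566, plus strand) are printed 5′ to 3′. They show the motif run beside a window of the same pathway without an exact match, with the ISRE matches in capitals.
Isg15: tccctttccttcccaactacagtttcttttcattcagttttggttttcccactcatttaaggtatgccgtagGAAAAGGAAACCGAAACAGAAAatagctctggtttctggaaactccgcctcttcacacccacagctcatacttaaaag
Uba7: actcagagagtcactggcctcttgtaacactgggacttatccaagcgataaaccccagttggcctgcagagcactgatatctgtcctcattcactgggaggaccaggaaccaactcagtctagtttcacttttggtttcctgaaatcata

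Uba7 (ENSMUSG00000032596; chr9:107975505-107984060, plus strand) encodes the E1 enzyme that activates ISG15 and starts the relay. Its control levels were 118.8, 95.7, 103.4 and 71.4 CPM and its levels with IgG were 134.0, 133.0, 128.5 and 103.2 CPM in replicates 1 to 4. IgG 4 was as low as the middle of the control range, so the groups overlapped, while the other 3 IgG libraries lay above every control. The within-pair differences were 0.17, 0.47, 0.31 and 0.53 on the log2 scale, again smaller in pairs 1 and 3. This was the smallest estimate of the 5 genes, with a log2 fold change of 0.37 ± 0.095 (SE, n = 4 pairs) and an edgeR adjusted p of 0.245. Without the block the edgeR adjusted p was 0.692.

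Ube2l6 (ENSMUSG00000027078; chr2:84798828-84810335, plus strand) encodes the E2 enzyme that receives ISG15 from UBA7. Its control levels were 49.3, 40.5, 42.9 and 35.5 CPM and its levels with IgG were 75.1, 52.3, 64.3 and 51.6 CPM. The lowest IgG value exceeded the highest control value, which held for none of the other 4 genes and for 2.6% of all tested genes. The within-pair differences as measured, 0.61, 0.37, 0.58 and 0.54, varied little between pairs (SD 0.11). After the GC content and length correction they were 0.74, 0.36, 0.73 and 0.40 (SD 0.21), larger in pairs 1 and 3. The log2 fold change was 0.53 ± 0.090 (SE, n = 4 pairs, 95% interval 0.32 to 0.73), and it fell short of the adjusted threshold (edgeR adjusted p = 0.0596, unadjusted p = 0.000351). Without the block the size was 0.53 and the unadjusted p 0.00403, the lowest of the 5 genes in that comparison, with an edgeR adjusted p of 0.692. Ube2l6 passed the adjusted threshold in 5 of the 14 alternative settings, among them the GC content and length correction (log2 fold change 0.56, edgeR adjusted p = 0.0209).

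Herc6 (ENSMUSG00000029798; chr6:57581000-57664632, plus strand) encodes the E3 ligase that transfers ISG15 from UBE2L6 to its substrates. Its control levels were 58.7, 41.4, 49.6 and 27.3 CPM and its levels with IgG were 84.0, 59.0, 75.2 and 31.2 CPM. Replicate 4 was far below the rest in both groups, and IgG 4 lay under 3 of the 4 controls. The within-pair differences were 0.52, 0.51, 0.60 and 0.19, so pair 4, which gave the largest difference for Isg15, gave the smallest for Herc6. The log2 fold change was 0.46 ± 0.10 (SE, n = 4 pairs), with an edgeR adjusted p of 0.152, and 0.705 without the block. With pair 4 left out it was 0.53, and the edgeR adjusted p was 0.0320.

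The order of the Herc6 pairs changed with the correction for GC content and exon length. Herc6 has the lowest GC content of the 5 genes, 39.4% of its longest transcript against 50.3% to 54.8% in the others, and also the greatest exon length, 9.29 kb against 0.756 to 6.69 kb, and the parts of the 2 properties were not tested separately. After the correction its within-pair changes were 0.15, 0.49, 0.22 and 0.55, with pair 1 now the smallest and pair 4 the largest. The corrected log2 fold change was 0.35 ± 0.088 (SE), with an edgeR adjusted p of 0.132.

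**Figure D2:**
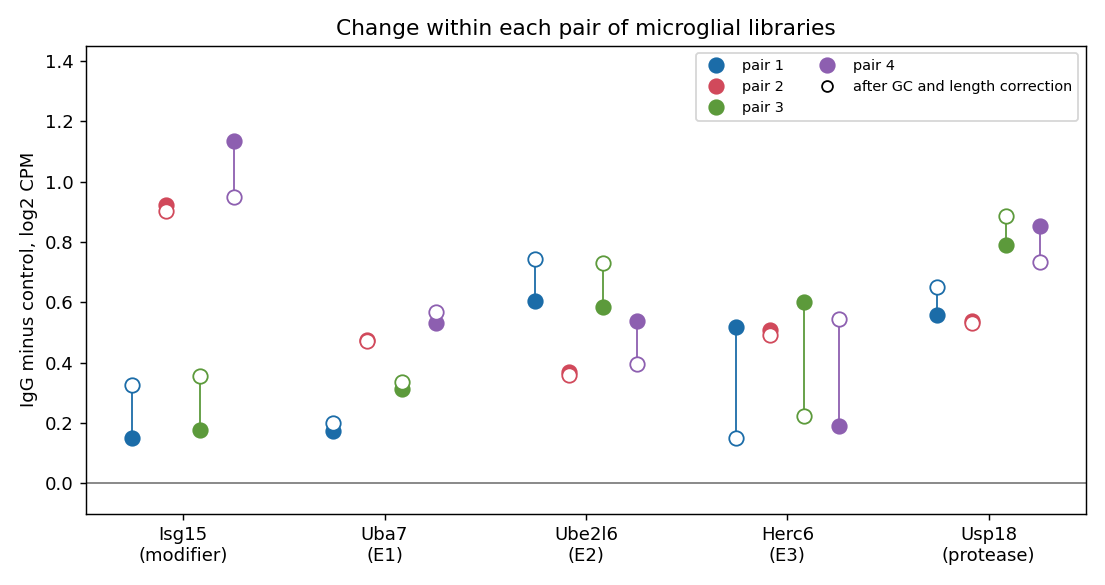
Difference in log2 CPM between the IgG and control library of each pair for the 5 ISG15 pathway genes, as measured (filled circles) and after removal of the trend with GC content and exon length (open circles). All circles lie above 0. The correction draws the Isg15 pairs closer together, spreads the Ube2l6 pairs apart and moves Herc6 pair 4 from the smallest change to the largest.

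Usp18 (ENSMUSG00000030107; chr6:121245906-121270917, plus strand) encodes the protease that strips ISG15 from its substrates and is the brake of the pathway. Its control levels were 44.9, 36.9, 36.4 and 20.3 CPM and its levels with IgG were 66.1, 53.6, 63.0 and 36.8 CPM in replicates 1 to 4. The groups overlapped through IgG 4 alone, whose value matched the middle of the control range. Within pairs the differences were 0.56, 0.54, 0.79 and 0.85 on the log2 scale. Usp18 rose by a log2 fold change of 0.68 ± 0.098 (SE, n = 4 pairs, 95% interval 0.46 to 0.91), or 1.61-fold (interval 1.38 to 1.88), and was the one gene of the pathway past the adjusted threshold (edgeR adjusted p = 0.0350). It ranked 51st by p and 272nd by log2 fold change among the 17537 tested genes. Without the block the size was 0.66 but the edgeR adjusted p was 0.692. Leaving out pair 1, 2 or 3 also ended the call (edgeR adjusted p = 0.129, 0.224 and 0.169), whereas leaving out pair 4 kept it (0.0270). Scaling by library totals alone (0.0971) or by upper-quartile factors (0.0538) ended it too.

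The 5 genes shared the ends of their ranking of replicates. Replicate 1 was the highest and replicate 4 the lowest of its group in each of the 5 genes, in controls and IgG libraries alike. The paired fit takes out such levels shared within a pair, and the unpaired fit leaves them in the spread.

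The sizes of the changes were compared between genes. Of the 10 comparisons between 2 genes of the pathway, Usp18 exceeded Uba7 in all 4 pairs, by 0.31 on the log2 scale on average, and Herc6 in all 4 pairs, by 0.23. Both had an exact sign-flip p of 0.13 (two-sided, n = 4 pairs, adjusted p = 0.625), which is the smallest that this test allows with 4 pairs, so it cannot reach 0.05 and does not show whether the sizes differ. For the other 8 comparisons the exact p was 0.25 to 0.75.

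Levels were compared between genes per kilobase of the longest coding transcript. In the controls, Isg15 was at 47.7 ± 20.6 CPM per kb (SD, n = 4), Uba7 at 30.5 ± 6.19, Ube2l6 at 27.0 ± 3.68, Usp18 at 19.6 ± 5.81 and Herc6 at 9.28 ± 2.79. With IgG the levels were 67.2 ± 11.0 for Isg15, 39.0 ± 4.54 for Uba7, 39.0 ± 7.15 for Ube2l6, 31.0 ± 7.44 for Usp18 and 13.1 ± 4.87 CPM per kb for Herc6. The modifier was thus the highest and its ligase the lowest in all 8 libraries, by 4.09-fold to 7.89-fold. The same genes were highest and lowest per kilobase of all exon bases, by 7.97-fold to 15.4-fold. On the transcript scale Uba7 and Ube2l6 did not differ beyond their spread in either group. Per kilobase of exon their ranges did not overlap, with Uba7 at 10.7 to 17.7 and Ube2l6 at 17.8 to 24.7 CPM per kb in controls and at 18.6 ± 2.17 and 30.5 ± 5.59 CPM per kb (SD, n = 4) with IgG, so their order rests on the length used. On the transcript scale the ranges of neighbours in this order overlapped in the controls, but with IgG the lowest Isg15 value lay above every Uba7 value and the highest Herc6 value below every Usp18 value. Usp18 lay below Uba7 and Ube2l6 in every library on the transcript scale, but on the exon scale it passed Uba7 in IgG 1 and IgG 3.

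**Figure D3:**
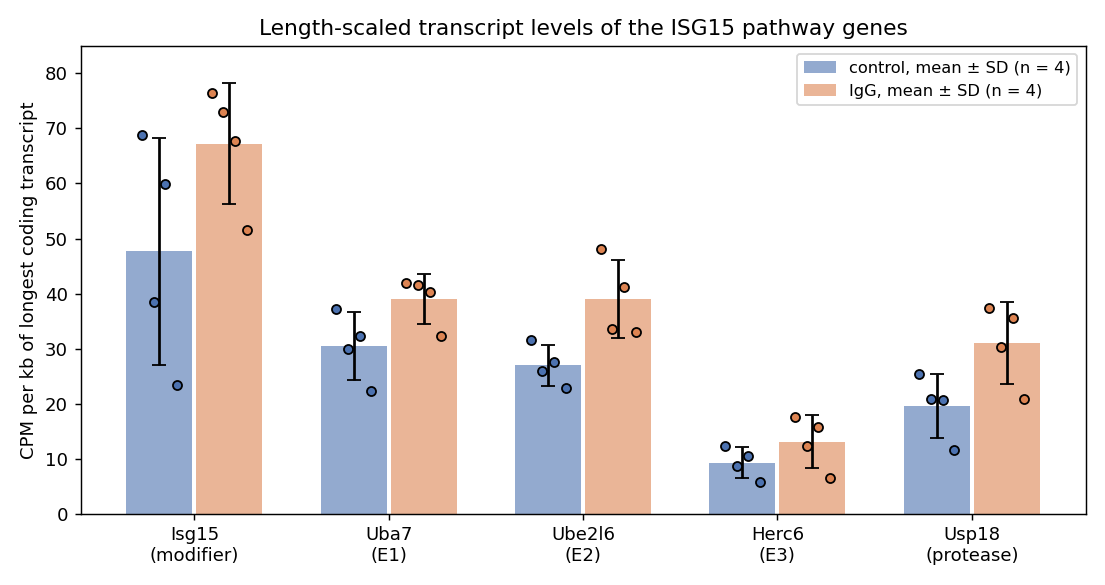
Level per kilobase of longest coding transcript (CPM per kb, linear axis from 0) of the 5 ISG15 pathway genes in control and IgG libraries, with bars for the mean, error bars for the SD (n = 4) and a point for each library. Isg15 stands highest and Herc6 lowest in both groups, and the Uba7 and Ube2l6 bars are level with IgG.

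Uba7, Ube2l6, Herc6 and Usp18 were then each set beside the other genes of their own enzyme families. The protease family includes 6 other genes reported to cleave ISG15. Ube2l6 had the highest log2 fold change of the 31 tested E2 genes, and it was above the other 30 in each of the 4 pairs. The next highest was Ube2v1, a ubiquitin E2 variant, at 0.28, the lowest was Ube2t at -0.36, and the family median was 0.09. Uba7 was the highest of the 10 tested E1 genes, followed by Uba6 at 0.25. In pairs 2 and 4 no other E1 gene exceeded it, but in pairs 1 and 3 it was exceeded by 3 and 2 of the other 9. Herc6 was the highest of the 5 tested HERC genes in every pair, and the lowest was Herc3 at -0.08. Among the 45 tested genes of the ubiquitin-specific proteases, Usp18 was the highest and Usp13 the lowest at -0.28, and the family median was 0.05. By pair, 4, 0, 0 and 1 of the other 44 proteases exceeded Usp18. These ranks are descriptions and were not tested.

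**Figure D4:**
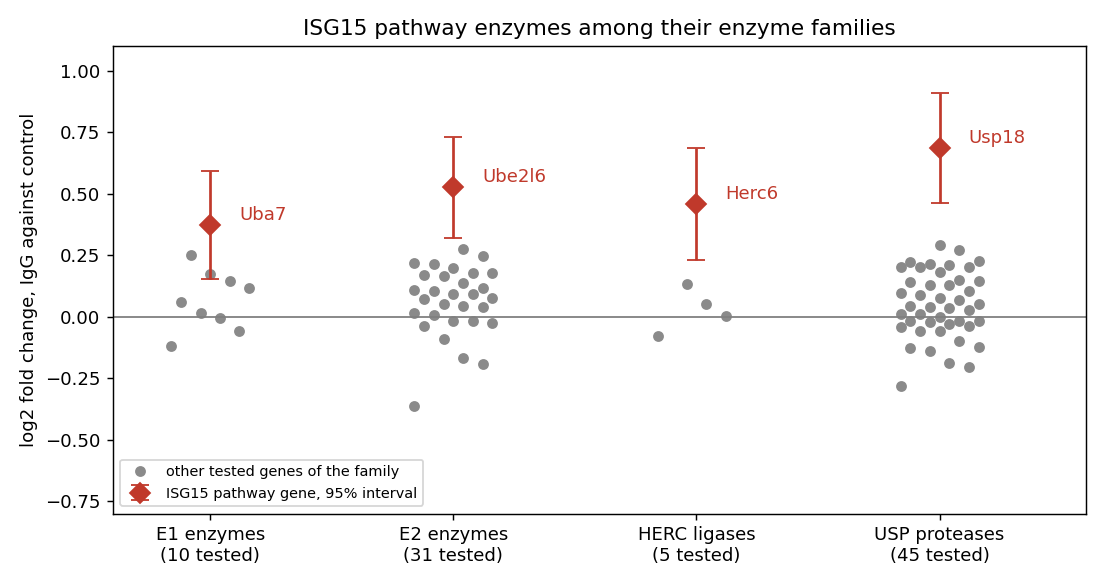
Log2 fold change with IgG of Uba7, Ube2l6, Herc6 and Usp18 (red diamonds, bars for the 95% interval of the estimate) and of the other tested genes of their enzyme families (grey points, no error shown). In each family the ISG15 pathway gene is the topmost point.

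Genes of neighbouring pathways were described by list, beside a median log2 fold change of -0.005 over all tested genes. Among 6 other ligases, a list of the remaining HERC genes, Trim25 and Arih1, none passed an unadjusted p of 0.05 and the median log2 fold change was 0.05. Trim25, itself reported as an ISG15 ligase, was the highest at 0.16 ± 0.087 (SE). The 6 other proteases reported to cleave ISG15 likewise had no gene below an unadjusted p of 0.05 and a median of 0.06, with Usp5 the highest at 0.10. The 4 genes that encode ubiquitin itself had a median of -0.01. Of them, 1 was higher at an unadjusted p below 0.05, against 6.35% of all tested genes, and none passed the adjusted test. Of 9 other ubiquitin-like modifiers 8 could be tested, Ubd being at 0 counts in every library. Among the 8, 1 was higher at an unadjusted p below 0.05, against the same 6.35%, and none passed the adjusted test. The lowest of them was Urm1 at -0.16. The E2 enzymes of those modifiers, 7 genes, ranged from -0.04 (Ube2m) to 0.12 (Ufc1), and none was below an unadjusted p of 0.05.

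The receptor pathway that USP18 restrains was also examined. Of 7 genes of the IFN-I receptor, its kinases and its transcription factors, 3 were higher at an unadjusted p below 0.05, against 6.35% of all tested genes. None of the 7 passed the adjusted test, which called 0.393% of all tested genes. Stat2 was at 0.45 and Irf9 at 0.25, both higher in all 4 pairs. Ifnar2, the receptor chain bound by USP18, was at 0.16 ± 0.086 (SE), and the kinase gene Tyk2 was the lowest at -0.04.

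Free ISG15 that leaves the cell is reported to be sensed through the integrin LFA-1, whose chains are encoded by Itgal and Itgb2. Itgal was at 197 ± 14.7 CPM in controls and 255 ± 23.2 CPM with IgG (SD, n = 4 each), and its log2 fold change of 0.37 ± 0.10 (SE) did not pass the adjusted test (edgeR adjusted p = 0.299). Itgb2 was at -0.08, slightly lower with IgG in all 4 pairs.

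Proteins reported as ISG15 substrates were represented by 26 genes, all tested, with a median log2 fold change of 0.10. Ifit3 and Ifit1 passed the adjusted test with edgeR, rising by 0.89 ± 0.097 (SE, adjusted p = 0.0145) and 1.06 ± 0.15 (SE, adjusted p = 0.0329). That test called 0.393% of all tested genes. Ifit1 encodes a protein that binds foreign RNA, and Ifit3 a partner of the same family. By the study's criterion 6 of the 26 passed as higher, against 1.48% of all tested genes. Ddx58, Ifih1 and Mx1 were among them, the first of these encoding the RNA sensor RIG-I and the second MDA5. The 5 genes named so far are themselves interferon-induced genes. The lowest was Plcg1, a phospholipase gene, at -0.31 (edgeR adjusted p = 0.377), and it was lower with IgG in all 4 pairs. Of the 26 genes, 9 (34.6%) were higher and 3 (11.5%) lower in all 4 pairs, against 10.4% and 8.47% of all tested genes.

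Genes outside the pathway with the most similar pattern were sought by Pearson r of log2 CPM with the mean standardized level of the 5 genes over the 8 libraries, which are 4 pairs of shared date and 2 groups. Epsti1 had the highest r, 0.997, followed by Oas1a (0.995), Rtp4 (0.992), Oas1g (0.991) and Gm19412 (0.990). Epsti1 was at 29.6 CPM in controls and 45.6 CPM with IgG, and its log2 fold change of 0.65 ± 0.094 (SE) passed the adjusted test (edgeR adjusted p = 0.0362). Oas1a and Oas1g encode enzymes that make the activator of RNase L. For single members the closest genes were Gm26716 for Isg15 (0.983), H2-T-ps for Uba7 (0.987), Grn, the progranulin gene, for Ube2l6 (0.993), Gbp10 for Herc6 (0.999) and Epsti1 for Usp18 (0.987). The nearest gene was a different one for each of the 5, and only Usp18 shared its nearest gene with the mean of the pathway. Each of these is the highest r of all tested genes outside the pathway. The top 5 for the mean differed little (0.990 to 0.997), so which gene came first carries little meaning. Between the members themselves, r over the 8 libraries ran from 0.79 (Isg15 and Ube2l6) to 0.97 (Uba7 and Usp18).

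Several of the 5 loci share sequence with other annotated genes, and the use of strand in counting is not given in the sources used here. Herc6 overlaps Gm45193 on the same strand over 1269 exon bases, 13.7% of its own, and Uba7 overlaps Gm20661 on the same strand over 233. Gm45193 had 338 to 843 counts per library and Gm20661 had 233 to 384. Strand cannot separate reads in these shared bases. Gm20661 had a log2 fold change of 0.55 (edgeR unadjusted p = 0.00247). The parts of Gm45193 and Gm20661 in the Herc6 and Uba7 values were not tested. Usp18 overlaps the lincRNA Gm44148 on the opposite strand over 124 exon bases, and that gene had 137 to 410 counts, so reads of the 2 genes there cannot be told apart if strand was ignored. Gm44148 itself had a log2 fold change of 0.73 (edgeR unadjusted p = 0.00127), and its part in the Usp18 value was not tested. Isg15 has a partial copy, AC151275.1, with 95.2% identity over 482 bases, which had 0 to 5 counts per library against at least 411 for Isg15. Ube2l6 shares stretches of 260 to 508 bases at 90.6% to 96.5% identity with 6 other genes. Of these, D10Wsu102e had 881 to 1095 counts per library and Ift46 had 456 to 558, against 824 to 1624 for Ube2l6. The rest had 0 to 61. Their part in the Ube2l6 value was not tested.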

How the data were processed

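RNA was measured by sequencing in 8 libraries of mouse microglia, 4 control and 4 IgG. The authors deposited raw counts for each Ensembl gene, with no normalization. Their methods describe oligo(dT) selection, ribosomal RNA removal, read filtering and alignment to mm10 with HISAT2, and the submitters' processing notes name GRCm38, HISAT2 2.2.1, SAMtools 1.12, Picard 2.26.3, featureCounts, R 4.1.2 and edgeR 3.36.0 without a role. Annotation and the treatment of strand and of multiply aligned reads are not given in the sources used here. Symbols, coordinates and lengths came from GENCODE M21, in which 55144 of 55385 identifiers were found, and promoters from RefSeq.

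Counts were filtered with filterByExpr, scaled with TMM and fitted with edgeR 4.0.16 (R 4.3.3, limma 3.58.1) by the quasi-likelihood test, with the replicate number as a block and Benjamini-Hochberg adjustment over 17537 genes. The block rests on the shared dates in the labels, and the 2 libraries of each pair departed together from the means of their groups over 15905 genes (Pearson r 0.20 to 0.38, against -0.32 to 0.17 between pairs). Changes within pairs are differences of log2 CPM with a prior count of 2. Nothing in the labels says that replicates were separate animals, so p-values measure the spread between these cultures. No library was a repeat of another: the chi-square per degree of freedom between replicates was 5.00 to 17.6 among controls and 6.59 to 121 among IgG libraries, where IgG 1 and 3 were the closest. At this depth 3 counts equal 0.127 to 0.141 CPM, and the lowest count of any member was 411, for Isg15 in control 4.

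Genes were named by rule: the 5 members, and from each list the genes past the adjusted threshold with the highest and the lowest, the 5 genes most similar to the members' mean and the 1 most similar to each member, and overlapping genes and copies. Some genes that the rule names are not reported here. Members, lists and tests were chosen with earlier results of these data known, so they are not independent evidence. Alternatives were a likelihood ratio test, DESeq2 1.42.0, limma-voom, no block, 3 other scalings, 2 other filters, each replicate left out and a lowess correction for GC content and exon length (span 0.3). The test was tried before use on simulated counts with log2 changes of 1 and 1.5. These are larger than the estimates of the 5 genes, so recovery of changes of their size was not tried.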

Additional observations from a re-analysis of the deposited data

How the results depend on the processing

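The fitted log2 fold changes of all 5 genes were above 0 under each of the 14 alternatives, with values of 0.40 to 0.74 for Isg15, 0.27 to 0.44 for Uba7, 0.43 to 0.58 for Ube2l6, 0.35 to 0.53 for Herc6 and 0.58 to 0.73 for Usp18. The calls at an adjusted p below 0.05 moved more than the sizes. Without the replicate block, 0 of the 5 genes and 0 of all tested genes passed, Usp18 was at 0.66, and 1 gene of the pathway met the study's criterion instead of 2. Scaling by library totals alone shifted the median of all genes by -0.10. With it 4 of the 5 genes, all but Isg15, were higher in every pair, 0 of the 5 passed, 1 met the criterion, 37 of all genes passed and Usp18 was at 0.58. With upper-quartile factors 0 passed, 1 met the criterion, 55 of all genes passed and Usp18 was at 0.65. The likelihood ratio test passed 3 (Ube2l6 at 0.53, Herc6 at 0.46, and Usp18) and 327 of all genes. DESeq2 passed 2 (Ube2l6 at 0.52, and Usp18) and 231 of all genes. Testing the 31368 genes with at least 1 count passed 4 (Isg15 at 0.58, Ube2l6 at 0.52, Herc6 at 0.45, and Usp18) and 376 of all genes, and requiring at least 10 counts in every library left 1 gene meeting the criterion. That count rose to 3 of the 5 genes under 6 alternatives, namely the likelihood ratio test, DESeq2, genes with at least 1 count, the GC content and length correction, and leaving out replicate 3 or replicate 4, and the added gene was Isg15 in each except without replicate 4, where it was Herc6. The GC content and length correction passed 3 (Isg15 at 0.63, Ube2l6 at 0.56, and Usp18) and 213 of all genes. The cause of these moves was not tested.

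Leaving out 1 pair at a time passed 0 to 3 of the 5 genes and 0 to 182 of all tested genes. Without replicate 2 no gene passed, although 245 were higher and 81 lower by the study's criterion. Without replicate 1 or 3 no gene of the pathway passed, with 14 and 16 calls over all genes. Without replicate 4, Ube2l6 (0.50), Herc6 (0.53) and Usp18 passed. The estimates ran from 0.50 to 0.58 for Ube2l6, 0.41 to 0.53 for Herc6 and 0.61 to 0.73 for Usp18. Uba7 passed under none of the 14 alternatives, with adjusted p from 0.0559 to 0.814.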
